A study of Mus musculus with 84 samples.

Results

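Enhancers are stretches of DNA, often far from the genes they act on, that bind transcription factors and raise the activity of a promoter. H3K4me1, methylation of lysine 4 of histone H3 with a single methyl group, lies over enhancers that are active and over enhancers that are primed but not in use, and acetylation of the same nucleosomes (H3K27ac) marks those in use, whereas H3K27me3 is the mark laid down by Polycomb repressors. In adipocytes, the enhancers of lipid-storage genes are known for binding PPARγ and C/EBP factors, and those of macrophages for binding PU.1.

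The regions described here are the distal H3K4me1 regions of mouse epididymal adipose tissue (epiAT) adipocytes after weight loss from a 25-week diet. H3K4me1 peaks of all 22 H3K4me1 libraries were merged into 70779 regions, and the 26064 of them that lay more than 2000 bp from every protein-coding transcription start site (TSS; GENCODE, GRCm38) and touched no H3K4me3 peak of any library were kept as distal regions. Any overlap with a peak, down to 1 bp, counted a region as marked in that library. Of the 26064 regions, 17982 were marked in at least 1 of the 5 libraries compared, 8082 in none of them and 223 in all 5.

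The 5 libraries are CUT&Tag profiles, in which an antibody directs a DNA-tagging transposase to a histone mark, of nuclei from frozen epiAT. HHC mice were fed high-fat diet (HFD) for 25 weeks and then chow diet for 8 weeks (3 libraries, replicates 1, 2 and 3), and CCC mice were fed chow throughout (2 libraries, replicates 1 and 3). Both groups were 39 weeks old, male and of the genotype AdipoERCre x NuTRAP, labelled as on a C576BL6 background, so that tamoxifen, given to all of them before the diet, switched on a nuclear and ribosomal tag through a Cre driven by the adiponectin promoter. The pulldown of tagged nuclei through their biotin was therefore meant to select those of adipocytes that already existed before the diet. The design alone does not show that only such nuclei were profiled, and marker genes are given below. The labels call the replicates biological, without naming the animals, so p-values measure the spread between these libraries. The other groups used below, whose peaks entered the merged regions but not the calls, were HH (HFD for 25 weeks, 31 weeks old) with its chow control CC_l, H (HFD for 12 weeks, 18 weeks old) with its control C, and HC (HFD for 12 weeks, then chow for 8 weeks, 26 weeks old) with its control CC_s, all of the same genotype and tamoxifen treatment.

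HHC replicate 2 stood apart from the other HHC libraries. The Jaccard index of covered base pairs (shared over total) of its H3K4me1 peaks was 0.447 with CCC replicate 1 and 0.551 with CCC replicate 3, against 0.380 with HHC replicate 1 and 0.352 with HHC replicate 3. HHC replicates 1 and 3 had an index of 0.376 with each other and of 0.228 to 0.307 with the CCC libraries, and the CCC libraries had 0.506. In H3K27ac, HHC replicate 2 had an index of 0.535 with CCC replicate 1, against 0.386 and 0.295 with HHC replicates 1 and 3 and 0.174 with CCC replicate 3. HHC replicate 1 had 0.350 with CCC replicate 1 and 0.349 with HHC replicate 3. A total of 1108 distal regions were marked in HHC replicates 1 and 3 alone, and 1058 in HHC replicate 2 and both CCC libraries alone. The H3K27ac list of CCC replicate 3 was short, with 14917 peaks against 32907 to 41989 in the others. The counts of called regions, their features and the values at them are given with and without HHC replicate 2, and the H3K27ac values also without CCC replicate 3.

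**Figure D1:**
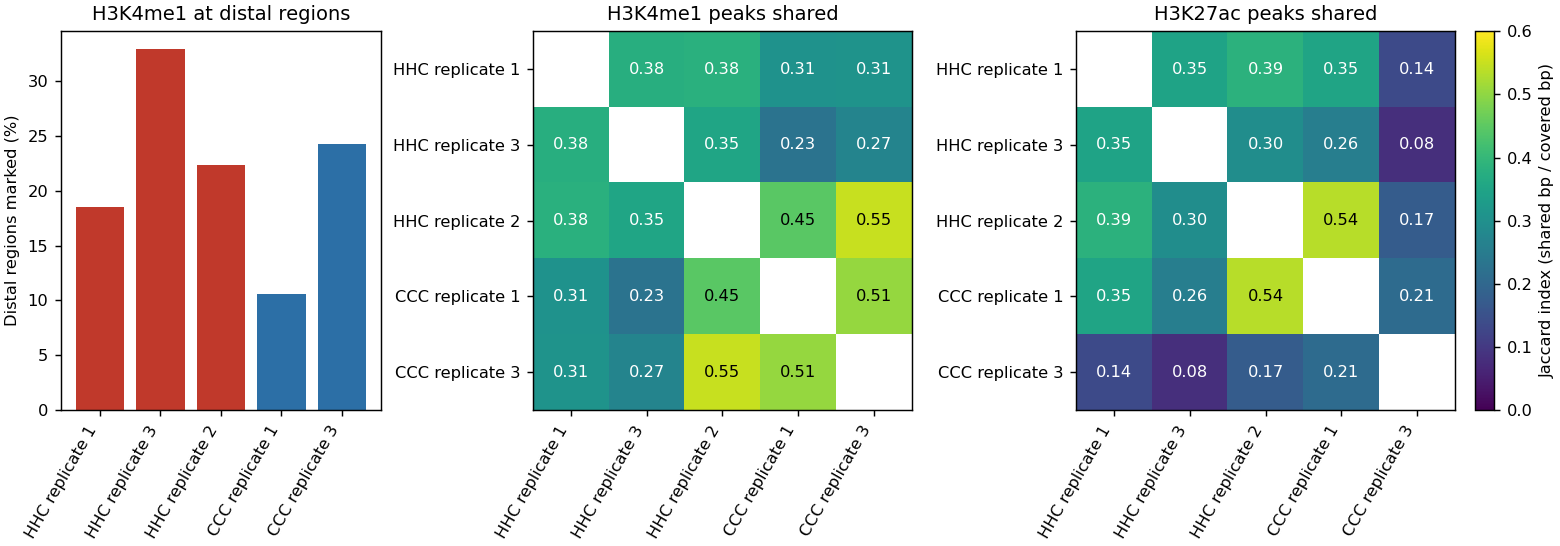
Left, percentage of the 26064 distal regions carrying an H3K4me1 peak in each HHC (red) and CCC (blue) library; middle and right, Jaccard index of covered base pairs between libraries for H3K4me1 and H3K27ac (colour and printed value). HHC replicate 2 shared more H3K4me1 with the CCC libraries (0.45 and 0.55) than with the other HHC libraries (0.38 and 0.35), and the short H3K27ac list of CCC replicate 3 shared little with any library.

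The labelled cell type was checked against marker genes. Adiponectin (Adipoq) and perilipin 1 (Plin1) carried a promoter H3K4me3 peak in both CCC libraries and in HHC replicates 1 and 2, and Plin1 in HHC replicate 3 as well. Of the 43 annotated genes of an adipocyte identity and lipid storage list, 40 to 43 had an H3K4me1 peak in the gene or within 20000 bp in every library. The share of all H3K4me1 peak signal that lay at these genes was 0.836%, 1.26% and 0.5005% in HHC replicates 1, 2 and 3 and 1.38% and 1.40% in CCC. At the 40 annotated genes of a macrophage and pan-leukocyte list the share was 0.768%, 0.257% and 0.430% in HHC and 0.224% and 0.219% in CCC, so that all HHC libraries lay above both CCC libraries. Promoters of 37, 33 and 32 of these 40 genes carried H3K4me3 in HHC, and 20 and 14 in CCC. The treatment label of CCC replicate 3 for H3K4me3, the library with 14, gives the age and diet of HH, against its title, and the title was used. For Ptprc (CD45) and Adgre1 (F4/80), which define leukocytes and macrophages, all 3 HHC and neither CCC library had an H3K4me3 promoter peak. At lymphocyte genes the signal share was 0.317%, 0.126% and 0.268% against 0.080% and 0.090%, and Cd3e had an H3K4me3 promoter peak in HHC replicates 1 and 2 only. At endothelial genes it was 0.107%, 0.117% and 0.263% against 0.107% and 0.102%, and Cdh5 had an H3K4me3 promoter peak in all HHC and no CCC library. At mesothelial, mural, stromal progenitor, epithelial and neuron and Schwann genes it was 0.178% or less in every library. These lists hold 13 to 20 genes, so their shares cannot be set beside that of the 40 leukocyte genes. Promoters of 13, 19 and 18 of the 20 stromal progenitor genes carried H3K4me3 in HHC, and 16 and 15 in CCC. Pdgfra had an H3K4me3 promoter peak in every HHC and CCC library, the adhesion gene Epcam in HHC replicate 1 only, and Krt5 and Rgs5 in none. The part of these differences in the results below was not tested, and more nuclei of another cell type cannot be told apart from a mark gained in adipocytes.

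The groups overlapped in the share of distal regions marked. In the number of all H3K4me1 peaks, distal or not, every HHC library lay above both CCC libraries. The libraries held 35284, 38325 and 40682 peaks in HHC and 29833 and 34925 in CCC, a difference of 0.24 on the log2 scale (exact permutation test over libraries, two-sided, p = 0.2; with 3 against 2 libraries the smallest possible p is 0.1). A peak was present at 18.5%, 22.3% and 32.9% of the distal regions in HHC (24.6% ± 7.47, SD, n = 3) and 10.6% and 24.3% in CCC (17.4% ± 9.67, SD, n = 2), a difference of 7.13 percentage points (exact permutation p = 0.5). CCC replicate 3 thus marked more regions than HHC replicates 1 and 2, and the groups overlapped. Of the 8577 regions marked in HHC replicate 3, 5330 were marked in no other of the 5 libraries, as were 2455 of 4817 in HHC replicate 1, 2127 of 6327 in CCC replicate 3, 1312 of 5817 in HHC replicate 2 and 193 of 2764 in CCC replicate 1.

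Called regions were those on which the libraries of a group were unanimous. In 311 regions H3K4me1 was present in 3 of 3 HHC and 0 of 2 CCC libraries (gained, 1.19% of the regions), and in 570 regions it was present in 2 of 2 CCC and 0 of 3 HHC libraries (lost, 2.19%). These calls rest on a presence rule and carry no test. The gained share of the called regions was 35.3%. Without HHC replicate 2 the numbers rose to 1419 gained (5.44%) and 1628 lost (6.25%), and the gained share to 46.6%. Without HHC replicate 1, 923 were gained, and without CCC replicate 1, 2697 were lost. With an equal number of peaks taken from every library (the 14486 with the highest signal), 12 were gained and 128 lost, and the gained share fell to 8.57%.

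The gained and lost regions differed in size and position. Gained regions had a median width of 3891 bp and lost regions of 2367 bp, against 2067 bp over all distal regions. Of the gained regions 61.4% lay in introns and 24.1% between genes, and of the lost regions 35.6% and 48.8%, against 47.5% and 37.9% of all distal regions. The median distance to the nearest TSS was 32909 bp for gained, 53062 bp for lost and 37139 bp for all distal regions. A protein-coding gene lay within 20000 bp of 260 gained regions (83.6%, 241 genes) and of 362 lost regions (63.5%, 340 genes), against 74.9% of all distal regions. With HHC replicate 2 left out, when either direction asked for 2 of 2 libraries, the median widths were 3169 bp and 2719 bp, introns held 51.6% and 39.5%, the median distances were 28813 bp and 55370 bp, and a gene lay within 20000 bp of 81.3% and 68.1%. The 223 regions marked in all 5 libraries were wider, at a median of 4757 bp. These are descriptions, with no test, and the part of width in the other shares was not tested.

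DNA sequence is shown for the 2 strongest gained regions outside the chromosomes not shown here, for the strongest lost region at an adipocyte list gene and for the 2 strongest lost regions that hold the C/EBP letters, the last 3 chosen after their values were seen. Each sequence is the 300 bp around the highest-signal stretch of the strongest peak, from the forward strand of GRCm38 (RefSeq), 5′ to 3′, with the letters of the searched motifs in capitals.
Tmem131 intron, gained (chr1:36884447-36884746): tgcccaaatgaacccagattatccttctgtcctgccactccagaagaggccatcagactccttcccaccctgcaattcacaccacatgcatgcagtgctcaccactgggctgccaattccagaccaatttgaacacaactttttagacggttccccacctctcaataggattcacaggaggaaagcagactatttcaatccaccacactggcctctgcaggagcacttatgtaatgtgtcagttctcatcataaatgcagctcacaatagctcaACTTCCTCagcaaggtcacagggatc
Gas7 intron, gained (chr11:67559617-67559916): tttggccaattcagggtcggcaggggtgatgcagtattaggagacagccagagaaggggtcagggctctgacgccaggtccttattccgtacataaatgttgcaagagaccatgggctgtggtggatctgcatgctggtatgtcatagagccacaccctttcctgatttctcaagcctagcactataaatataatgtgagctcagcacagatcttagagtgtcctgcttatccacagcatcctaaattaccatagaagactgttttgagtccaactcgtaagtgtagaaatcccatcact
Elovl6 intron, lost, adipocyte list (chr3:129566960-129567259): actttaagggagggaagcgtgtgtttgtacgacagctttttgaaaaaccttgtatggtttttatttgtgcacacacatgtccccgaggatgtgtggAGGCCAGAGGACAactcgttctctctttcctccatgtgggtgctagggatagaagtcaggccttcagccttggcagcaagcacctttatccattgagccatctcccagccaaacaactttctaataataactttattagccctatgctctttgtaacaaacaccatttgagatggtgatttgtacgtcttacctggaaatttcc
intergenic, nearest start site Rgma, lost (chr7:72971907-72972206): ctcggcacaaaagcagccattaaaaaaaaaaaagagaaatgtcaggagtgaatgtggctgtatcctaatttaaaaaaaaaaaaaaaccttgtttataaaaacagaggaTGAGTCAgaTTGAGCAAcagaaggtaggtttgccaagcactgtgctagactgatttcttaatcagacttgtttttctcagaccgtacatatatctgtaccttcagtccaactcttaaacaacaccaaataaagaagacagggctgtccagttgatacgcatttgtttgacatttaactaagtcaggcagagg
intergenic, nearest start site Wdr11, lost (chr7:129902313-129902612): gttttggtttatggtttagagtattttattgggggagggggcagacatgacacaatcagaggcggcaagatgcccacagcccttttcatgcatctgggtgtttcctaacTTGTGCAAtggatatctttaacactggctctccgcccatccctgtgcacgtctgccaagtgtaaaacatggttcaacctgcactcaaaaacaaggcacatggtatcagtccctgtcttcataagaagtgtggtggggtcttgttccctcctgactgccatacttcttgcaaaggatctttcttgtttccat
In these windows the capitals mark PU.1 letters at Tmem131 (on the reverse strand), the PPAR-RXR repeat at Elovl6, and the C/EBP letters in the last 2, next to AP-1 letters in the region nearest to Rgma. The window at Gas7 holds none of the 10 motifs.

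C/EBP letters were more frequent in lost than in gained regions. TTGCNNAA, searched on both strands, was found in 28.4% of the lost windows (162 of 570, 95% Wilson interval 24.9% to 32.3%), in 9.97% of the gained windows (31 of 311, 7.11% to 13.8%) and in 15.7% of the windows of all distal regions. The median GC content was close, at 47.3% in lost, 48.3% in gained and 47.3% in all distal regions. The shares were 24.1% and 10.8% without HHC replicate 2. EBF letters (CCCNNGGG), for the EBF factors of adipocyte and B-cell development, were found in 13.2% of lost, 10.3% of gained and 9.47% of all windows. PU.1 letters (GAGGAAGT) were found in 1.58% of lost, 2.89% of gained and 3.68% of all windows, and in 6.06% of the regions gained without HHC replicate 2. The intervals of gained and all regions overlapped for AP-1 (TGANTCA, 13.5% of gained, 10.9% of lost and 12.1% of all), for the steroid receptor half-site pair (ACANNNTGT, 12.2%, 12.3% and 11.8%), for the E-box (CACGTG, 5.79%, 2.46% and 4.31%) and for IRF (GAAA repeated after 2 bases, 3.86%, 2.98% and 3.78%). PPAR-RXR repeats (AGGNCA repeated after 1 base) were found in 1.29%, 1.40% and 1.04%, and the NFI pair (TTGGC and GCCAA 5 bases apart) and CREB (TGACGTCA) in under 0.4% of each set. TTGCNNAA and the other patterns are loose letters, so a match is not a bound site, and the intervals cover counting error only.

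**Figure D2:**
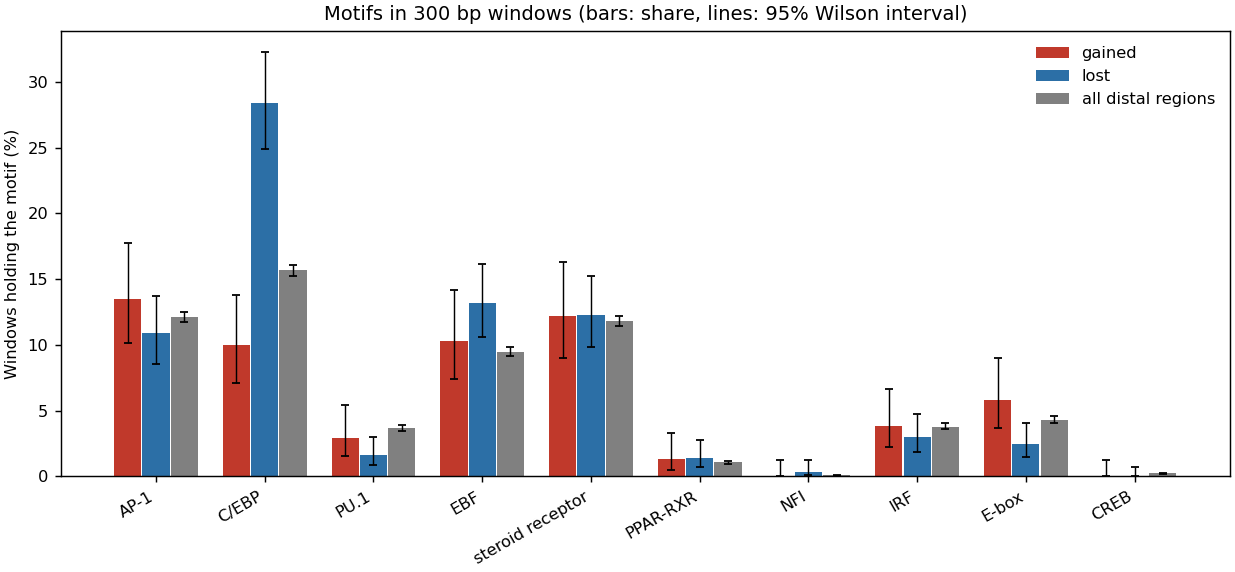
Percentage of 300 bp windows that hold each motif in gained (red, 311), lost (blue, 570) and all distal regions (grey, 26064); lines are 95% Wilson intervals. C/EBP letters stand at 28.4% of lost, 9.97% of gained and 15.7% of all windows, and the other motifs differ less between the sets.

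Of the 10 strongest gained regions 9 lay in introns and the other one over a coding exon. Over all gained regions 61.4% lay in introns. Strength here is the lowest percentile, over the libraries the call says are marked, that the region's strongest peak holds among that library's peaks ranked by total signal. A region of 5616 bp in an intron of Tmem131 (chr1:36882709-36888324), whose product takes part in collagen secretion, stood at percentiles 80.4, 65.1 and 83.9 in HHC replicates 1, 2 and 3 and had no peak in either CCC library. It carried H3K27ac in 2 of 3 HHC and 0 of 2 CCC libraries, and H3K4me1 in 3 of 3 HH and 1 of 2 CC_l libraries. An intronic region of Lyn (chr4:3728538-3738872, touching a coding exon), encoding a Src-family kinase of myeloid and B cells, stood at percentiles 96.3, 58.5 and 85.2 and carried H3K27ac in 2 HHC libraries and H3K4me1 in all 3 HH and 1 of 2 CC_l libraries. Its peak was lowest in HHC replicate 2. At Gas7 (chr11:67557739-67561472), which encodes an actin- and membrane-binding protein, the percentiles were 72.8, 61.9 and 73.3, and a second gained region in the gene (chr11:67515023-67517932) carried H3K27ac in 3 of 3 HHC and 0 of 2 CCC libraries. The other regions of highest strength lay at Galnt1, which starts mucin-type O-glycosylation, Stim2, a calcium sensor of the endoplasmic reticulum, Pacsin2, a membrane-curving protein of caveolae and endocytosis, Nck2, an adaptor of receptor tyrosine kinases, Ptpn14, a tyrosine phosphatase, Nudt3, and Heca. Over these 10 regions the lowest percentile in a library was 55.1 to 67.8, and HHC replicate 2 was the lowest library in 8 of them.

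Several genes held more than 1 gained region. In all, 15 of the 241 genes linked to gained regions held 2 or more, as 21 of the 340 genes linked to lost regions did. Over all distal regions, 19510 linked regions lay at 7222 genes. Ccny (cyclin Y), Hivep2 (a zinc-finger factor), Maml2 (a coactivator of Notch receptors) and Rybp (a subunit of Polycomb complex 1) held 3 gained regions each. The strongest of the Maml2 regions (chr9:13553900-13561708) stood at percentiles 83.5, 52.4 and 79.8 in HHC, and was also marked in 3 of 3 HH and 0 of 2 CC_l libraries. The strongest at Rybp (chr6:100210352-100217352) had percentiles 71.0, 42.7 and 82.5, with H3K27ac in 2 HHC and 0 CCC libraries and H3K4me1 in 3 HH, but also in 2 of 2 CC_l libraries. Plxna1, a semaphorin receptor, and Snx29, a sorting nexin, held 2 gained regions.

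More of the strongest lost than of the strongest gained regions lay between genes, as held over all lost (48.8%) and all gained regions (24.1%). Of the 10 of highest strength, 4 were over 50000 bp from any protein-coding gene. That share was not taken over all lost regions. Of all lost regions 52.3% lay over 50000 bp from the nearest TSS, against 41.1% of all distal regions. An intronic region of Snd1 (chr6:28548513-28552223), which encodes an RNA-binding nuclease, stood at percentiles 76.1 and 77.5 in CCC replicates 1 and 3 and had no peak in any HHC library; it carried H3K4me1 in 1 of 3 HH and 2 of 2 CC_l, 2 of 3 HC and 3 of 3 CC_s, and 2 of 3 H and 3 of 3 C libraries. Cop1, an E3 ubiquitin ligase, had a lost intronic region (chr1:159279368-159283442) at percentiles 69.7 and 75.5. A region 399386 bp from the nearest TSS, that of Rgma (chr7:72971156-72976123), stood at 67.4 and 85.1, and carried H3K27ac in 2 of 2 CCC and 0 of 3 HHC libraries and H3K4me1 in 2 of 2 CC_l and 0 of 3 HH. Tcf12, a bHLH transcription factor, held an intronic region (chr9:71872351-71875824) with H3K27ac in 2 of 2 CCC and 0 of 3 HHC libraries. The others were at Pelp1, a nuclear receptor coactivator, Tgm3, a transglutaminase, and Arhgef11, and nearest to Tmem114, Fam76b and Ramp3. Of these 10, 6 were marked in both or all libraries of at least 2 of the 3 other control groups, a share that was not taken over all lost regions. The region near Rgma and those at Pelp1 and Tgm3 were also called lost between HH and CC_l, as were 23.3% of all lost regions. The oestrogen receptor gene Esr1 (chr10:4942182-4945492) and Pld1 (chr3:28091527-28094364) held regions lost in the same way, each marked in 2 of 2 CC_l and 0 of 3 HH libraries.

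Genes of the adipocyte list held lost and not gained regions. The adipocyte identity and lipid storage list was linked to 45 distal regions, of which 4 were lost (8.89%, against 2.19% over all) and 0 gained (against 1.19%). They lay at Elovl6 (fatty acid elongase), Acaca (acetyl-CoA carboxylase), Gpam (the first acyltransferase of triglyceride synthesis) and Tshr (the thyrotropin receptor). HHC replicate 1 marked 4.44% of the 45 regions, against 18.5% of all distal regions, and a region it did not mark could not be called gained. CCC replicate 1 marked 22.2% of the 45 regions, against 10.6% of all distal regions, and a region it did not mark could not be called lost. The part of these shares in the counts was not tested. At Elovl6 (chr3:129564634-129569682) the percentiles were 25.0 and 67.1 in CCC, and at Gpam (chr19:55144316-55149498) 2.10 and 59.5, and over the 4 regions the percentile in CCC replicate 1 was 1.38 to 25.0, below that in CCC replicate 3 in each. The Tshr region stood at 1.38 and 5.15, and carried H3K4me1 in 2 of 3 HH and 1 of 2 CC_l libraries. Those at Elovl6 and Acaca carried it in 0 of 3 HH and 2 of 2 CC_l libraries, and that at Gpam in 1 of 3 and 2 of 2. Without HHC replicate 2, 10 of the 45 were lost (22.2%, against 6.25%) and 0 gained (against 5.44%), which brought in Pparg (chr6:115438240-115441531), the master regulator of adipogenesis, Acsl1, Abhd5, 2 more regions of Elovl6 and 1 more of Gpam, all marked in HHC replicate 2. The Pparg region stood at percentiles 2.83 and 39.2 in CCC replicates 1 and 3. It carried H3K4me1 in 1 of 3 HH and 1 of 2 CC_l libraries, and H3K27ac in 1 of 3 HHC and 0 of 2 CCC libraries. The Acsl1 region carried H3K4me1 in 3 of 3 HH and 1 of 2 CC_l libraries, and the Abhd5 region in 0 of 3 and 2 of 2. The insulin and adrenergic signalling list had 0 of 74 gained and 2 lost (2.70%, near the 2.19% over all), at the insulin receptor Insr (chr8:3287285-3289688, percentiles 30.6 and 8.996) and at Tbc1d4, a regulator of glucose transporter traffic. In the thermogenesis and mitochondrial regulation list 0 of 52 was gained or lost, but 8 of 52 were lost without HHC replicate 2 (15.4%, against 6.25%), at Ppargc1b, Nrf1, Ebf1 and Pdk4. CCC replicate 1 marked 28.8% of these 52 regions, against 10.6% of all distal regions.

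Called regions at genes of the macrophage list were near the share over all distal regions when all 3 HHC libraries were asked for. The macrophage and pan-leukocyte list was linked to 79 regions, of which 1 was gained (1.27%, against 1.19% over all) and 0 lost (against 2.19%). The gained one overlapped an untranslated exon of Irf8 (chr8:120756679-120764917), a transcription factor of macrophages, and stood at percentiles 88.6, 12.1 and 14.004 in HHC replicates 1, 2 and 3, high in replicate 1 and low in the other two HHC libraries. Without HHC replicate 2, 9 of 79 were gained (11.4%, against 5.44%) and 0 lost (against 6.25%), at Irf8, Runx1, Ikzf1, Itgam, Ctss, Cx3cr1, Inpp5d, Lcp1 and Ptprc. The region at Runx1 (chr16:92648471-92655325) stood at percentiles 62.2 and 82.5 in HHC replicates 1 and 3, that at Ikzf1 (chr11:11700234-11705464), a factor of lymphoid development, at 86.2 and 47.98, and that at Itgam (chr7:128113885-128116919), the integrin CD11b, at 48.3 and 53.3. Ptprc was at 68.6 in HHC replicate 1 and at 0.632 in replicate 3. The lymphocyte list had 0 called regions of 46, and 6 gained (13.04%, against 5.44%) and 1 lost (2.17%, against 6.25%) without HHC replicate 2, the gained ones at Bach2, Prkcq, Cd247 and Ikzf3 and the lost one at Pax5. The inflammatory signalling list had 0 of 40, and 5 gained (12.5%, against 5.44%) and 2 lost (5%, against 6.25%) without HHC replicate 2, the gained ones at Jak1, Nfkb1, Tnfaip3 and Il6ra and the lost ones at Il6 and Tlr4. The regions called without HHC replicate 2 were chosen after their values were seen. A region not marked in CCC replicate 1 could not be called lost, with or without HHC replicate 2. CCC replicate 1 marked 2.53% of the macrophage, 8.70% of the lymphocyte and 5% of the inflammatory regions, against 10.6% of all distal regions. The low counts of lost regions in these lists are bounded by those shares. In the same way, a region not marked in HHC replicate 1 could not be called gained. HHC replicate 1 marked 48.1% of the macrophage, 50% of the lymphocyte and 30% of the inflammatory regions, against 18.5% of all distal regions. The part of these shares in the gained counts was not tested.

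Among the other lists the called regions were few. The extracellular matrix list had 2 gained (Col15a1 and Itgav) and 3 lost (Col6a1, Lama4 and Tnc) of 109 (1.83% and 2.75%, near the 1.19% and 2.19% over all), and 3 gained (2.75%, against 5.44%) and 16 lost (14.7%, against 6.25%) without HHC replicate 2. CCC replicate 1 marked 21.1% of these 109 regions, against 10.6% of all distal regions. The region at Col15a1 (chr4:47257650-47263635), encoding a basement membrane collagen, stood at percentiles 73.3, 12.9 and 85.4. TGF-beta, BMP and Wnt signalling had 1 gained of 89 at the receptor gene Tgfbr2 (chr9:116112920-116116189, percentiles 51.8, 20.9 and 28.3) and 1 lost at Smad2 (1.12% each), and 4 and 3 without HHC replicate 2 (4.49% and 3.37%). The list of AP-1, KLF, clock and glucocorticoid-responsive factors had 0 gained and 3 lost of 57 (5.26%), at the clock genes Cry1, Npas2 and Rora, and 2 and 5 without HHC replicate 2 (3.51% and 8.77%). Lysosomal genes had 1 gained (Hexa) and 1 lost (Lipa) of 45 (2.22% each), with or without HHC replicate 2. Stromal progenitor genes had 2 lost of 34 (Ebf2 and Twist2, 5.88%, against 2.19%). Without HHC replicate 2 they had 1 gained (2.94%, against 5.44%) and 4 lost (11.8%, against 6.25%). Endothelial genes had 1 lost of 54 (Lyve1, 1.85%), and 3 without HHC replicate 2 (5.56%, against 6.25%). Epithelial genes had 1 lost of 5 (Krt14, 20%), neuron and Schwann genes 1 of 15 (Sox10, 6.67%) and mesothelial genes 0 of 16, against 2.19%. Of 9 regions linked to mural genes 1 was gained (11.1%, against 1.19%). It was an intergenic region within 20000 bp of Pdgfrb, and its nearest start site, at 11501 bp, was that of Csf1r, a macrophage gene. When regions were linked by the nearest start site, the mural list had 0 gained and the macrophage list 2 of 100 (Csf1r and Irf8).

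With 3 against 2 libraries the smallest possible p is 0.1, so no difference in the marking of list-linked regions could pass 0.05. Tests of HHC against CCC therefore cannot decide whether a list differs. The share of macrophage and pan-leukocyte regions marked was 48.1%, 10.1% and 35.4% in HHC and 2.53% and 7.59% in CCC, a difference of 26.2 points (exact permutation p = 0.2, adjusted p = 0.96 over 16 lists). All 3 HHC libraries lay above both CCC libraries, HHC replicate 2 by the least. The lymphocyte list read 50%, 10.9% and 39.1% against 8.70% and 15.2% (p = 0.3), with HHC replicate 2 between the CCC libraries, and the inflammatory list 30%, 15% and 35% against 5% and 12.5% (p = 0.2, exact permutation tests). In the adipocyte list 4.44%, 40% and 11.1% were marked in HHC and 22.2% and 62.2% in CCC, a difference of -23.7 points (exact permutation p = 0.4), and HHC replicates 1 and 3 lay below both CCC libraries. In the thermogenesis list HHC replicate 2 had the highest share (57.7%) and HHC replicates 1 and 3 the lowest (9.62% and 15.4%), with CCC at 28.8% and 44.2%. HHC replicate 3 had the highest share of endothelial (46.3%), mesothelial (43.8%) and neuron and Schwann regions (53.3%), where the other 4 libraries had 20% or less. All 16 adjusted p were 0.96 or 1, and the difference from the 12-week contrast (HC against CC_s) had an adjusted p of 1 in all 16 lists. Without HHC replicate 2 the macrophage difference was 36.7 points and the adipocyte difference -34.4 points (exact permutation p = 0.333 for both, the smallest that 2 against 2 libraries allow). Without CCC replicate 3 the adipocyte difference was -3.70 points. With equal numbers of peaks the differences were 6.75 points for the macrophage, -2.96 for the adipocyte, 0.725 for the lymphocyte and 1.67 for the inflammatory list.

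**Figure D3:**
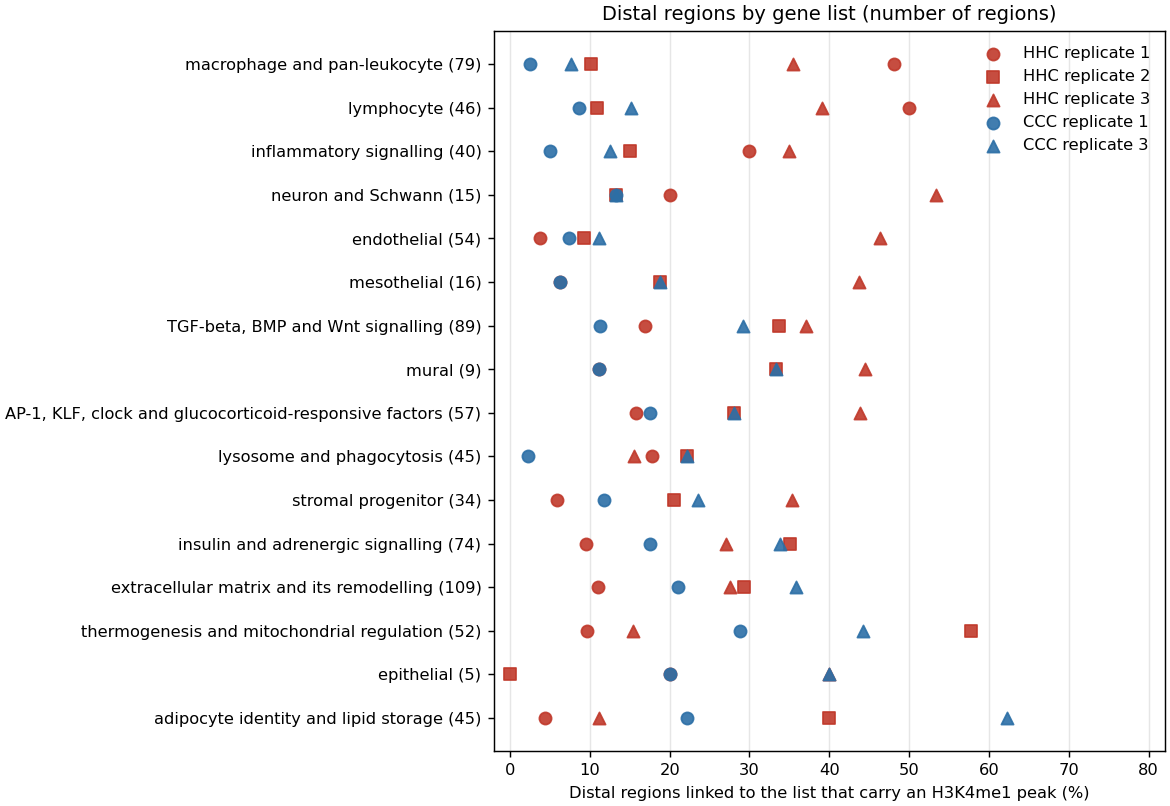
Percentage of the distal regions linked to each gene list that carry an H3K4me1 peak in each HHC (red) and CCC (blue) library, by replicate (circle 1, square 2, triangle 3), with the number of regions in brackets; lists are ordered by the difference of the group means. HHC replicate 2 sits near the CCC libraries in the leukocyte, lymphocyte and inflammatory lists and between the CCC libraries in the adipocyte list.

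H3K27ac, a mark the calls did not use, followed them in direction. With 3 against 2 libraries its test could not give a p below 0.1. Its libraries have the group and replicate labels of the H3K4me1 libraries that made the calls, and the workflow profiles the marks from nuclei of the same depot, so they are not independent samples. An H3K27ac peak was present at 39.2%, 14.5% and 54.0% of the gained regions in HHC and at 4.50% and 0% in CCC, a difference of 33.7 points (exact permutation p = 0.2), while 9.81%, 11.2% and 15.2% and 9.80% and 1.77% of all distal regions carried one. All HHC libraries lay above both CCC libraries. At the lost regions it was present at 2.98%, 15.6% and 5.09% in HHC and at 41.9% and 9.30% in CCC, a difference of -17.7 points (exact permutation p = 0.3), and HHC replicate 2 lay above CCC replicate 3, whose H3K27ac list was short. Without CCC replicate 1, with the regions called anew, the difference at lost regions turned to 0.890 points. Without CCC replicate 3 the differences were 27.9 and -26.9 points, and without HHC replicate 2, with the regions called anew, 40.4 and -23.7 points. At gained regions the difference was 17.5 points with the 50% of peaks of highest signal, 17.8 with 50% of a region covered, and 0 with equal numbers of peaks, where 12 regions were gained. H3K27ac was present in 3 of 3 HHC and 0 of 2 CCC libraries at 10 gained regions, among them introns of Ankrd44 (chr1:54845554-54849180), Xylt1 (chr7:117565983-117570135), which starts glycosaminoglycan chains, and Tom1l2 (chr11:60299935-60304435), and a region 160761 bp from Bcl2l11 (chr2:128323308-128327086). The reverse held at 30 lost regions. These were 10 of 311 gained and 30 of 570 lost regions, and the share of all distal regions with either pattern is not given here.

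H3K27me3 was present at few called regions. It covered 5.47%, 2.89% and 5.14% of the gained regions in HHC and 6.43% and 5.47% in CCC, a difference of -1.45 points (exact permutation p = 0.5). At the lost regions it was at 5.44%, 5.61% and 10.9% in HHC and 2.81% and 1.93% in CCC, a difference of 4.94 points (exact permutation p = 0.1, the smallest possible), with all HHC above both CCC libraries. The differences were -0.810 and 6.11 points without HHC replicate 2. The shares of all distal regions with H3K27me3 were 6.88%, 5.06% and 7.59% in HHC and 5.51% and 4.35% in CCC.

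**Figure D4:**
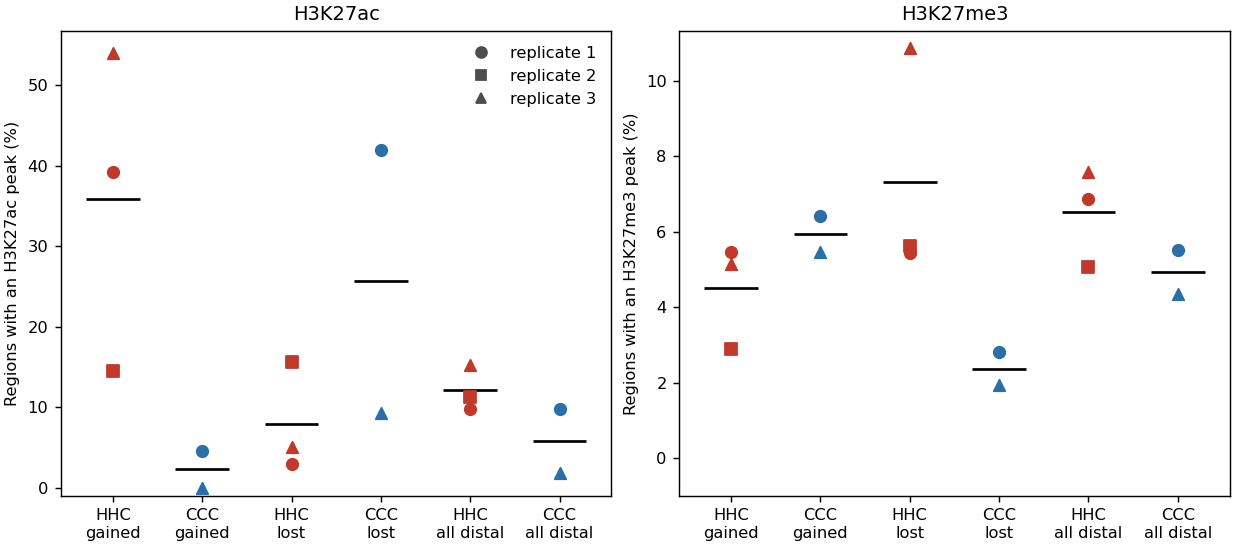
Percentage of gained, lost and all distal regions that overlap an H3K27ac (left) or H3K27me3 (right) peak in each HHC (red) and CCC (blue) library; symbols give the replicate and black lines the group means. H3K27ac at gained regions lies between 14.5% and 54.0% in HHC and at 4.50% or less in CCC.

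H3K4me1 at the same regions in other mice moved in the same direction in all 3 contrasts. The value taken was the percentage of gained regions marked minus the percentage of lost regions marked. In HH it was 59.9, 42.5 and 6.65 points and in CC_l -37.0 and -59.9, a difference of 84.8 points (exact permutation p = 0.1, the smallest for 3 against 2). In H it was 30.5, 37.3 and -10.1 and in C -11.0, -15.3 and -16.9, a difference of 33.6 points (exact permutation p = 0.1, the smallest for 3 against 3). In HC, the 12-week weight-loss group, it was -6.61, -2.02 and 33.5 and in CC_s -8.07, -19.2 and -52.6, a difference of 34.9 points (exact permutation p = 0.1). No control library reached the lowest diet library in any of the 3 contrasts, and HC replicate 3 was the highest HC library by far. CC_s replicate 3 was the lowest CC_s library by far. It marked 13.2% of all distal regions, against 2.25% and 4.58% in CC_s replicates 1 and 2. With labels permuted within the contrasts the mean difference of 51.1 points had an exact permutation p of 0.00025, the smallest of 4000 relabellings. Without HHC replicate 2, with the regions called anew, it was 40.5 points (exact permutation p = 0.007), with 66.1 for HH (exact permutation p = 0.2), 25.6 for H (p = 0.1) and 29.7 for HC (p = 0.3). With 50% of a region covered, HC had 13.96 points (exact permutation p = 0.3).

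Each share was also taken on its own. Gained regions were marked at 42.4% to 61.1% in HH against 12.5% and 13.5% in CC_l, at 5.47% to 42.8% in H against 0% to 1.61% in C, and at 3.22% to 35.05% in HC against 0% to 1.93% in CC_s. HC replicate 1 marked 3.22% of the gained but 5.07% of all distal regions, and H replicate 3 marked 5.47% and 6.18%, while the control libraries of H and HC marked 2.25% to 13.2% of all distal regions. Lost regions were marked at 1.23% to 35.8% in HH against 50.5% and 72.5% in CC_l, but in H (4.91% to 15.6%) and C (12.6% to 17.5%) and in HC (1.58% to 10.7%) and CC_s (8.07% to 54.6%) the ranges overlapped. Marker signal moved with these values in HH and H: the macrophage and pan-leukocyte list held 0.271% to 0.461% of the H3K4me1 peak signal in HH against 0.191% and 0.215% in CC_l, 0.208% to 0.368% in H against 0.155% to 0.175% in C. In HC it was 0.156%, 0.131% and 0.345% against 0.151% to 0.175% in CC_s. HC replicate 3, the HC library with the highest shift, thus lay above all CC_s libraries, and HC replicates 1 and 2 did not. The adipocyte list was lowest in HC replicate 3 (0.424%) and HH replicate 1 (0.515%), the HC and HH libraries with the highest shift. The part of these marker shares in the shift was not tested.

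**Figure D5:**
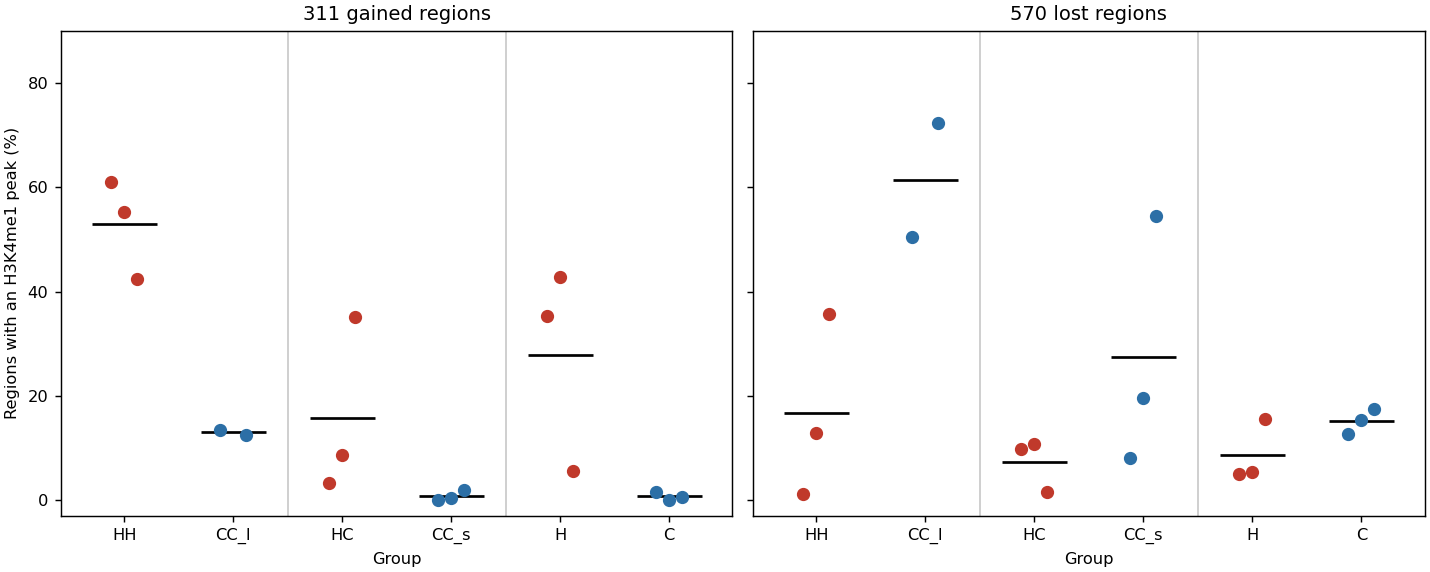
Percentage of the 311 gained (left) and 570 lost regions (right) that carry an H3K4me1 peak in each library of the groups that did not choose them; red, groups fed high-fat diet, blue, chow controls of the same age, black lines, group means. All HH, H and HC libraries lie above their controls at gained regions, and at lost regions the ranges of HH and CC_l are separate.

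Of the regions called between HHC and CCC, part was called, with all 3 HHC libraries, the same way between HH and CC_l, the mice that stayed on HFD for the same length and their controls, which share no library with HHC and CCC. HH against CC_l gave 214 gained (0.821% of the regions) and 891 lost (3.42%). A total of 48 gained regions were common (15.4% of those of HHC and 22.4% of those of HH) and 133 lost regions (23.3% and 14.9%), and 0 regions were called in opposite directions. Pacsin2, Maml2, Lnpep, Serinc5, Abhd17b and Vav3 held the strongest of the common gained regions. Lnpep encodes an insulin-regulated aminopeptidase of glucose transporter vesicles. The Lnpep region (chr17:17590296-17594197) stood at percentiles 78.5, 50.3 and 52.5 in HHC, and the Vav3 region (chr3:109430008-109432977) at 42.2, 47.6 and 50.6.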

How the data were processed

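The members and gene lists were chosen with earlier results of these data known. The deposited peak lists hold, for each of 84 samples, peaks with total and highest signal; per the labels and methods the authors trimmed reads (Trim Galore 0.6.6), aligned them to GRCm38 (Bowtie2 2.4.4, SAMtools 1.13) and called peaks per library with SEACR 1.3 (stringent, threshold 0.01, bedtools 2.30). The signal the authors deposited is summed fragment coverage, not comparable between libraries, so presence of a peak and percentiles within a library were used. Read depth per library is not in the files used here; the methods state only a minimum over all samples. The methods test counts over merged peaks; counts were not used here and no count model was run. Mean coverage in H3K4me1 peaks was 7.62, 11.3 and 7.88 in HHC replicates 1, 2 and 3 and 10.2 and 18.0 in CCC replicates 1 and 3. Its part in the calls was not tested.

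Regions were merged and overlapped (1 bp) in Python, and the overlaps of 1 library were checked against bedtools 2.31.1. GENCODE protein-coding start sites (41451 of 21951 genes) were used. A gene was linked when within 20000 bp. Shares were compared by two-sided exact permutation tests over libraries (Python 3.11.15, NumPy 2.4.6, pandas 2.3.3, SciPy 1.17.1), adjusted by Benjamini-Hochberg over the 16 lists, with figures from matplotlib 3.10.9. Scripts were tested on simulated data. Named regions were the 10 strongest per direction, called regions at list genes, genes with 2 or more called regions, the strongest also called in HH, and the strongest with H3K27ac called the same way. Alternatives were other overlap, signal and distance limits, equal peak numbers, a replicate block and each library left out. Counts per list without HHC replicate 2 and the contrast with the 12-week groups were added after seeing the data. Some sequences of called regions are not reported here.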

Additional observations from a re-analysis of the deposited data

How the results depend on the processing

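Of 443 values under alternative settings, 24 turned direction, 12 differences were 0 and 1 motif difference (NFI in gained regions, -0.0614 points) changed sign, to 0.229, within its interval. Differences of 0 were H3K27ac and H3K27me3 at gained regions and the mural list with equal numbers of peaks, the insulin list with the 50% of peaks of highest signal and the epithelial list under the replicate block. The other 7 arose on leaving out a library. With the 50% of peaks of highest signal, 38 regions were gained and 111 lost; with 50% of a region covered, 152 were gained and the gained share was 22.9%; with equal numbers of peaks, 12 and 128, share 8.57%; with regions touching an H3K4me3 peak kept, 1673 and 1259, share 57.1%. The cause was not tested. The replicate block, over the replicate numbers 1 and 3 that both groups have, leaves out HHC replicate 2 and gave 1419 gained and 1628 lost, a share of 46.6%, and a combined shift of 46.8 points. The numbers did not pair the libraries (correlations of deviations 0.0793 and -0.143). H3K27me3 at gained regions turned to 1.21 points with 50% of a region covered. List differences turned with the 50% of peaks of highest signal (epithelial 6.67, extracellular matrix 0.917, mesothelial -1.04, stromal progenitor -2.94, thermogenesis 1.92 points), with equal numbers of peaks (epithelial 6.67, mesothelial -3.13, stromal progenitor -1.47), with the nearest start site at any distance (epithelial 13.9, insulin 1.41, mural -14.8) and with H3K4me3-touching regions kept (mural -1.08, stromal progenitor -4.05). Leaving out each library, gained regions ranged from 325 to 1419, lost from 594 to 2697 and the gained share from 10.8% to 60.8%. In points, H3K27ac at lost regions ranged from -26.9 to 0.890, and the list differences from -0.877 to 13.2 (AP-1 and clock), -2.78 to 18.5 (endothelial), -13.1 to 1.53 (extracellular matrix), -9.91 to 6.31 (insulin), -3.70 to 16.3 (lysosome), -3.70 to 18.5 (mural) -4.41 to 10.3 (stromal progenitor), 0 to 18.0 (TGF-beta), 0 to 18.8 (mesothelial), -20 to 0 (epithelial) and -24.0 to 0 (thermogenesis). Read depth behind each peak was not used, so a missing peak was not shown to be an absent mark.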
